A study of Homo sapiens with 60 samples.

Results

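The 10 genes described here encode proteins of the BCL2 family: BCL2L1, MCL1, BCL2L11, PMAIP1, BBC3, BID, BIK, BMF, BAK1 and BAD. They were taken from a list of names that was chosen with earlier results of these data known. The names were matched to the Ensembl gene identifiers of the deposited count table, and the genes are 10 of 60675 in it. Of the 10, 9 passed the filter on low counts and are among the 17129 genes tested, and BIK did not.

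BCL2 family proteins decide whether the outer mitochondrial membrane stays intact. Pro-survival members such as BCL-XL (from BCL2L1) and MCL-1 hold the pore-forming proteins BAK and BAX in check, and BH3-only proteins such as NOXA (PMAIP1), PUMA (BBC3), BIM (BCL2L11) and BMF bind the pro-survival members or activate BAK and BAX directly. When the membrane is breached, cytochrome c escapes and caspases are activated. Several BH3-only genes are controlled mainly at transcription, whereas MCL-1 is also turned over rapidly as a protein, which RNA counts do not show.

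The cells were A549, an established human lung carcinoma line, harvested after 24 h of treatment for directional mRNA sequencing. The treated groups received wortmannin at 10 µM (an inhibitor of PI3-kinases, the study's positive control) or a hot-water herbal extract: ZRR (Zingiberis Rhizoma Recens, fresh ginger), ZR (Zingiberis Rhizoma, dried ginger), PT (Pinelliae Tuber) and ZF (Zizyphi Fructus) at 20, 100 and 500 µg/mL, SR (Scutellariae Radix) at 9.2, 46 and 230 µg/mL, and CR (Coptidis Rhizoma) at 5.2, 26 and 130 µg/mL. The highest SR and CR doses were set by growth inhibition of the cells, per the series' design text, and the 3 doses of an extract are called low, medium and high below. The vehicle group received DMSO, at 0.1% per the sample labels and 2% per the design text. Each of the 20 groups had 3 libraries, and nothing in the labels says whether these came from separate cultures. In fits of all libraries, p-values rest on the scatter within groups, pooled over the 20 groups, and that scatter may be technical.

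The 60 libraries held between 17420373 and 36479629 counts. All 8 epithelial and A549 markers were among the tested genes, with summed levels of 12978 to 17950 CPM (a gene's counts scaled to library size, with TMM factors), and CDKN2A, which A549 cells have lost, had no count in any library. The blood, endothelial and fibroblast markers summed to at most 11.4, 0.354 and 1.20 CPM. CD68 was the only blood or endothelial marker that passed the filter, and the fibroblast markers PDGFRA and LUM also passed it. The 3 libraries farthest from their groups, along an axis that followed how counts depended on transcript length, were set aside in an alternative fit. They were replicate 2 of ZRR low, replicate 3 of ZR low and replicate 2 of ZF high, called the libraries that stood apart below. Their slopes of log2 level on log2 length were 0.893, 0.879 and 0.888. The cut at 3 was chosen, and kept libraries came near, such as CR low replicate 3 (0.907) and PT high replicate 2 (0.913). Member calls that change when the libraries that stood apart are left out are given with and without them. CR low and CR medium libraries carried 14.8 to 20.1% and 15.7 to 17.5% mitochondrial counts, against 9.44 to 10.1% in vehicle libraries, while CR high had 10.4 to 11.4%. The first number in the sample codes differs between vehicle and every extract, and the first part of the code differs between vehicle and wortmannin. Its part in differences from vehicle cannot be told apart from treatment. This number is the same for all doses of an extract and within the pairs ZRR and ZR, SR and PT, and CR and ZF. Wortmannin shares the first part of its code with no other group.

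Promoter sequences are shown for 3 BH3-only genes: PMAIP1 and BBC3, which rose together in CR and in SR high, and BCL2L11, which fell in CR high and SR high. Each run is the stretch before the RefSeq transcription start on GRCh38.p14 that lies outside the exons of GENCODE 29, 5′ to 3′ on the gene's strand: PMAIP1 at chr18:59899746-59899947 (plus strand), BBC3 at chr19:47232767-47232917 (minus strand) and BCL2L11 at chr2:111120664-111120913 (plus strand). Capitals mark matches to TGACGT (the core of the cAMP response element, bound by the CREB and ATF families, reverse complement ACGTCA), TGATGNAA (the element bound by C/EBP and ATF4 dimers) or GTAAACA (the motif of forkhead factors), searched on both strands.
PMAIP1: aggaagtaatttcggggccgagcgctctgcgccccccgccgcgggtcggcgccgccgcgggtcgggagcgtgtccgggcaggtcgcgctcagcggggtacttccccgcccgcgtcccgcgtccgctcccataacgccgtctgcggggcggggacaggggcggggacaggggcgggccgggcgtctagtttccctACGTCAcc
BBC3: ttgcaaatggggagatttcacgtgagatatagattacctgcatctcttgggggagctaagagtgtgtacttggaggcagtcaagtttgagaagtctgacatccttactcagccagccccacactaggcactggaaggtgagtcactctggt
BCL2L11: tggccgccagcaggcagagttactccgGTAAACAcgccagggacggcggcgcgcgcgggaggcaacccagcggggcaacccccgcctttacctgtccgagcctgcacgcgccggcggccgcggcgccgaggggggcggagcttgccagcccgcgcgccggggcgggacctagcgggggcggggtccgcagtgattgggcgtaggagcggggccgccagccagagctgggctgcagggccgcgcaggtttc
The PMAIP1 run holds 1 match to the cAMP response element core, beginning 56 bases before the start, and the BCL2L11 run holds 1 forkhead match, beginning 223 bases before it. None of the 3 motifs matched the 250 bases before the BBC3 start. Over 35116 RefSeq promoters, 7.10% held TGACGT or its reverse complement in these 250 bases, 3.14% held TGATGNAA and 2.98% held GTAAACA. Entries existed for 8 of the 10 members, and the other one with a cAMP response element core was BAD. When all libraries were fitted with the filter on low counts and no covariate for transcript length, BAD was called in no comparison. A match describes letters in a window and not a bound site.

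Levels differed widely between the members. Per kilobase of the longest annotated transcript, the median level over the 60 libraries was 70.7 CPM for BCL2L1 and 46.3 CPM for MCL1, so the 2 pro-survival transcripts were the most abundant of the 10. BAD (19.6 CPM per kilobase), BID (12.7), BAK1 (10.9) and PMAIP1 (8.79) followed, then BCL2L11 (4.81) and BBC3 (3.65). BIK and BMF were near the limit of detection, at 0.206 and 0.159 CPM per kilobase. BIK, a BH3-only protein of the endoplasmic reticulum, had 0 to 11 counts per library and reached 10 counts in only 2 of 60, and no comparison was made for it. BMF had 8 to 46 counts per library, so its fold changes are less precise than those of the other tested members.

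Against vehicle, 25 of 171 values (9 tested members in 19 treatments) were called at an adjusted p under 0.05. PMAIP1 was called in 7 of the 19 treatments, BBC3 in 5, BCL2L1 in 4, MCL1 and BCL2L11 in 3 each, BMF in 2 and BAK1 in 1, while BID and BAD were called in none. The calls fell in wortmannin, all 3 CR doses and the high doses of SR, ZR and ZRR. In these treatments between 4.03% (ZRR high) and 35.1% (CR high) of all tested genes were called. In the other treatments the highest share was 1.40%, in PT high. The comparisons with vehicle share its 3 libraries, so the calls of different treatments are not independent of each other.

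**Figure D1:**
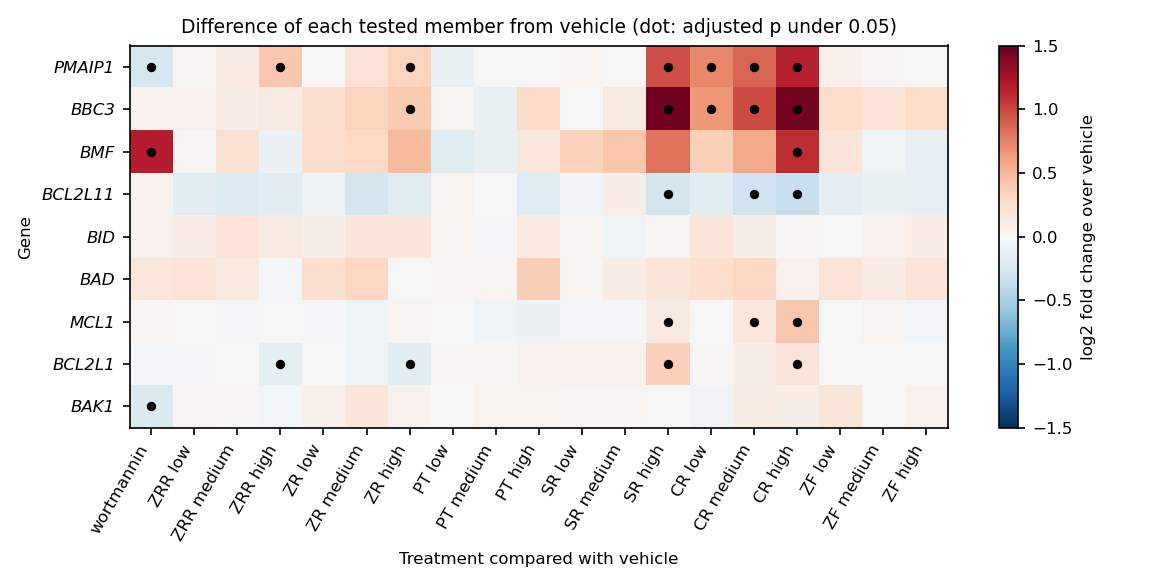
The heat map gives the log2 fold change of each tested member (rows) in each treatment (columns) over vehicle, with a dot where the adjusted p was under 0.05. PMAIP1 and BBC3 carry dots at all 3 CR doses and at SR high, and the PT and ZF columns carry none.

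In CR high, 5 of 9 tested members rose and 1 fell. The share of all tested genes called higher there was 18.5%, the share called lower 16.7%, and the share called either way 35.1%. PMAIP1 encodes NOXA, a BH3-only protein that binds MCL-1 and is transcribed under ATF4 in stressed cells. It had 36.1, 36.2 and 36.3 CPM in CR high, against 15.9, 15.9 and 17.2 CPM in vehicle. The groups lie far apart, and the log2 fold change was 1.15 ± 0.07 (SE; adjusted p = 4.33e-19 in edgeR). BBC3 encodes PUMA, a BH3-only protein that binds all pro-survival members. Its levels were 14.5, 15.6 and 17.6 CPM in CR high, against 5.61, 5.65 and 6.35 CPM in vehicle. Every CR high library exceeded every vehicle library by more than 2-fold, with a log2 fold change of 1.44 ± 0.11 (adjusted p = 6.85e-15). BMF, a BH3-only protein tied to the cytoskeleton through dynein light chain, had 1.20, 1.34 and 1.56 CPM in CR high, against 0.413, 0.588 and 0.872 CPM in vehicle. The groups did not overlap, and the log2 fold change was 1.11 ± 0.30 (adjusted p = 0.00245).

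Both pro-survival members also rose in CR high, by smaller folds. MCL1 had 236, 239 and 247 CPM in CR high, against 182, 182 and 184 CPM in vehicle, a log2 fold change of 0.40 ± 0.04 (adjusted p = 1.73e-12). BCL2L1 had 206, 208 and 215 CPM in CR high, against 175, 185 and 192 CPM in vehicle, a log2 fold change of 0.19 ± 0.04 (adjusted p = 0.000372). Neither gene's libraries overlapped between the groups. BCL2L11 encodes BIM, a BH3-only activator whose transcription is under forkhead control in many cells, and it fell. It had 21.3, 21.8 and 22.0 CPM in CR high, against 26.1, 27.2 and 29.9 CPM in vehicle. All CR high libraries were lower than all vehicle libraries, and the log2 fold change was -0.35 ± 0.08 (adjusted p = 0.000643). Exons of MIR4435-2HG lie opposite those of BCL2L11, and no source used here says whether the counting used strand, so reads from the opposite strand may be included.

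**Figure D2:**
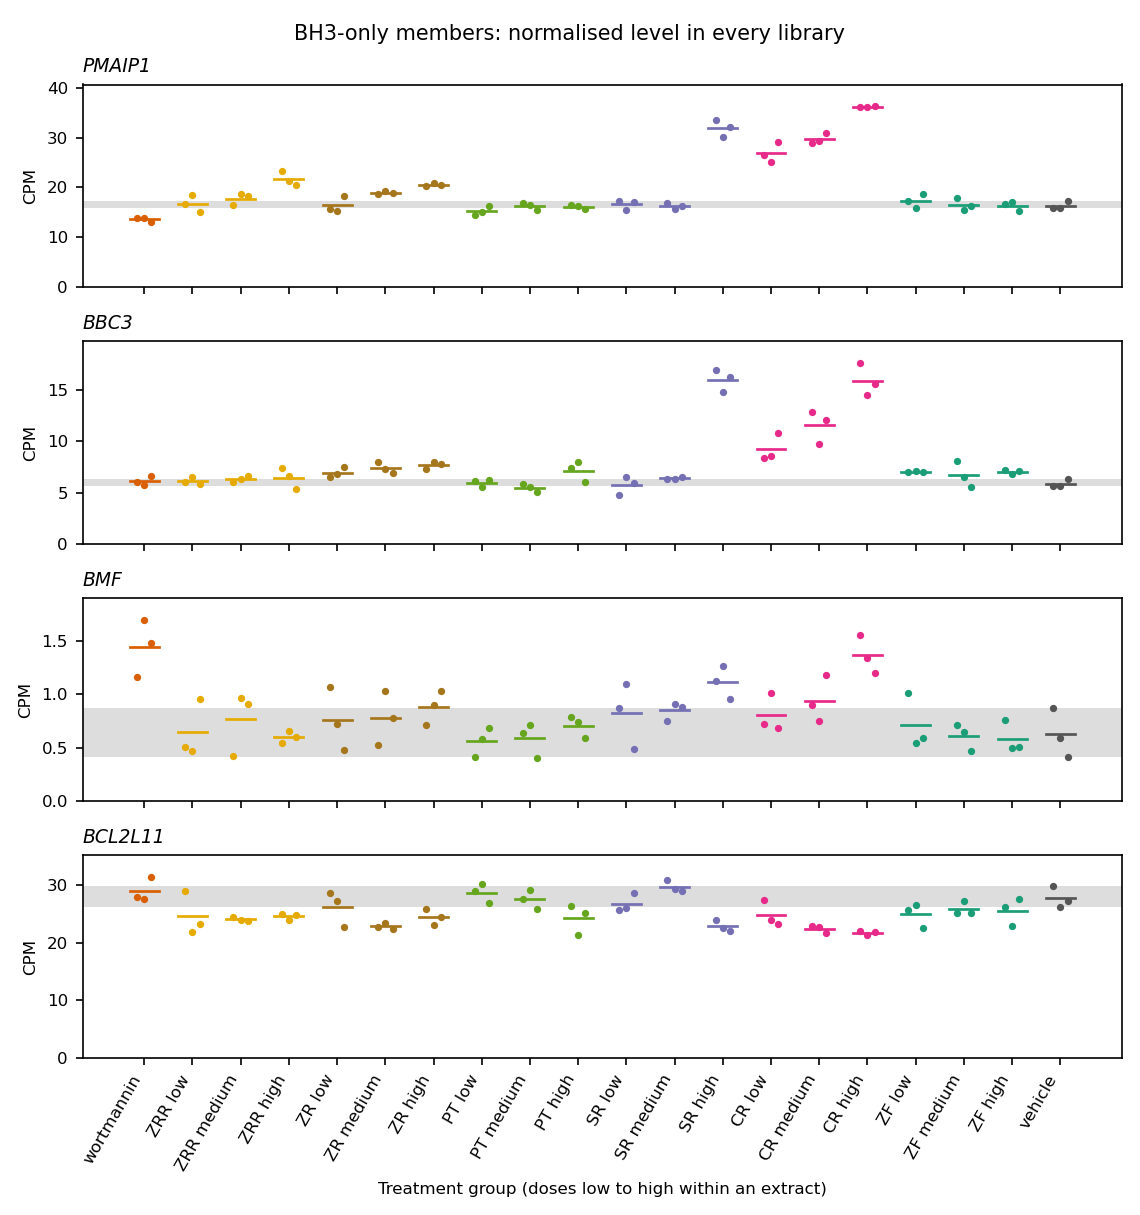
Each point is the CPM of 1 library for the 4 BH3-only members PMAIP1, BBC3, BMF and BCL2L11 in the 20 groups, short lines are group means, the grey band is the range of the 3 vehicle libraries, and each axis starts at 0. PMAIP1 and BBC3 stand above the band at every CR dose and at SR high. By smaller margins PMAIP1 also stands above it at ZRR high, ZR medium and ZR high, and BBC3 at every ZR dose, ZF low and ZF high. BCL2L11 lies below it at CR medium, CR high and SR high, and also at the medium and high doses of ZRR and ZR.

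The rise of PMAIP1 and BBC3 was already present at the lowest CR dose. At 5.2, 26 and 130 µg/mL, mean PMAIP1 levels were 26.9 ± 2.08, 29.7 ± 0.990 and 36.2 ± 0.107 CPM, and mean BBC3 levels were 9.23 ± 1.34, 11.5 ± 1.63 and 15.9 ± 1.57 CPM (SD, n = 3 each). The means of both genes were higher at each step of the dose. In CR low, 2 of 9 tested members rose and none fell, beside 8.51% of all tested genes called higher, 9.15% called lower and 17.7% called either way. PMAIP1 was higher by 0.72 ± 0.07 log2 units in CR low (adjusted p = 8.44e-11) and BBC3 by 0.65 ± 0.12 (adjusted p = 0.000119). In CR medium, 3 members rose (PMAIP1, BBC3 and MCL1) and BCL2L11 fell, where 12.1% of all tested genes were called higher, 11.1% lower and 23.2% either way. MCL1 had 204, 205 and 210 CPM in CR medium, against 182, 182 and 184 CPM in vehicle. The libraries did not overlap, and the log2 fold change was 0.17 ± 0.04 (adjusted p = 0.000346; with no filter 0.0619). BCL2L11 changed by -0.31 ± 0.08 log2 units in CR medium (adjusted p = 0.00499), and without vehicle replicate 1 its adjusted p was 0.0581.

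The mitochondrial share of counts was high in CR low and CR medium and not in CR high, and its part in these values was not tested. ZF libraries at the same dose step carry the same first code number as CR. In CR medium against ZF medium, 3 of 9 tested members were called, where 17.2% of all tested genes were, and in CR low against ZF low 2 of 9, where 5.11% were. PMAIP1 was higher by 0.85 ± 0.07 log2 units in CR medium than in ZF medium (adjusted p = 7.14e-14) and by 0.63 ± 0.07 in CR low than in ZF low (adjusted p = 2.42e-09). BBC3 was higher by 0.78 ± 0.11 in CR medium than in ZF medium (adjusted p = 5.12e-07), and its difference was smaller in CR low against ZF low, at 0.38 ± 0.12 (adjusted p = 0.0377). BCL2L11 was no longer called in CR medium against ZF medium (adjusted p = 0.0877). These comparisons were added after the values against vehicle were seen.

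Between the extremes of the CR series, 5 of 9 tested members were called in CR high against CR low, where 25.4% of all tested genes were. With 3 equally spaced log doses, this contrast is also the linear trend over dose. PMAIP1 was 0.43 ± 0.07 log2 units higher in CR high than in CR low (adjusted p = 1.18e-06), BBC3 0.79 ± 0.11 higher (adjusted p = 1.13e-07), MCL1 0.41 ± 0.04 higher (adjusted p = 1.67e-12) and BCL2L1 0.18 ± 0.04 higher (adjusted p = 0.00194). MCL1 thus rose mainly over the upper doses: its mean was 181 ± 9.82 CPM at CR low, 206 ± 3.12 at CR medium and 240 ± 5.70 at CR high. BMF was 0.75 ± 0.28 higher in CR high than in CR low (adjusted p = 0.0460), a call that was lost in DESeq2 (adjusted p = 0.0605), with no filter (0.0848) and with the length slope as a covariate (0.113). It also lost its call without CR high replicate 1 (adjusted p = 0.155), CR high replicate 2 (0.0827), CR low replicate 1 (0.141) or CR low replicate 3 (0.164). BCL2L11 had a log2 difference of -0.19 (adjusted p = 0.0847), and was called without the libraries that stood apart (-0.20, adjusted p = 0.0248) and with the length slope as a covariate (-0.30, adjusted p = 8.77e-05).

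**Figure D3:**
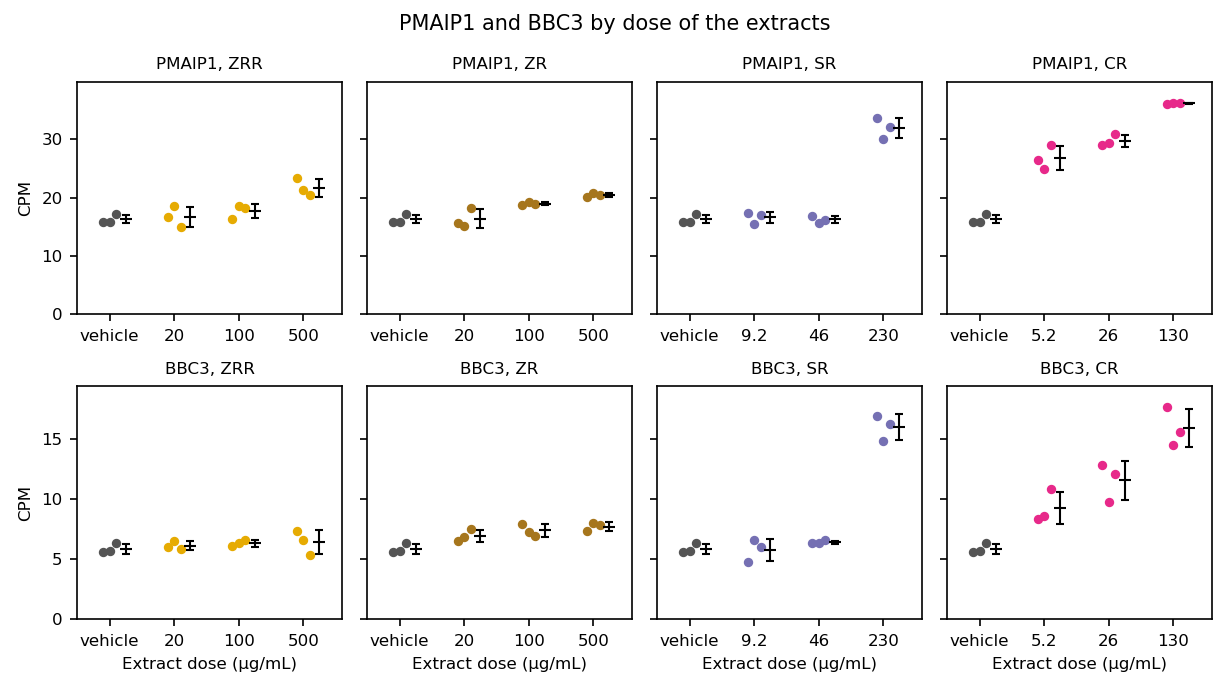
CPM of PMAIP1 (upper row) and BBC3 (lower row) in vehicle and at the 3 doses of ZRR, ZR, SR and CR in µg/mL on evenly spaced positions, with 1 point per library and the mean ± SD of 3 libraries beside it, on axes starting at 0. Both genes stood above vehicle from 5.2 µg/mL of CR on, whereas in SR both stayed near vehicle at 9.2 and 46 µg/mL and were high at 230 µg/mL.

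Members were called at the highest SR dose and at neither of the others. In SR high, 4 of 9 tested members rose and 1 fell, beside 13.0% of all tested genes called higher, 10.9% called lower and 23.9% called either way. In SR low and SR medium edgeR called no member, DESeq2 called none and none had an unadjusted p under 0.05. Of all tested genes 0.00584% were called in SR low and 0% in SR medium (722 at an unadjusted p under 0.05 and 2 in DESeq2). PMAIP1 had 30.1, 32.1 and 33.6 CPM in SR high, against 15.9, 15.9 and 17.2 CPM in vehicle, a log2 fold change of 0.97 ± 0.07 (adjusted p = 8.90e-16). BBC3 had 14.8, 16.2 and 16.9 CPM in SR high, against 5.61, 5.65 and 6.35 CPM in vehicle, a log2 fold change of 1.45 ± 0.11 (adjusted p = 2.43e-14). Neither gene overlapped between the groups. At 9.2, 46 and 230 µg/mL, mean PMAIP1 levels were 16.6 ± 0.985, 16.3 ± 0.585 and 31.9 ± 1.73 CPM, and mean BBC3 levels were 5.76 ± 0.906, 6.39 ± 0.126 and 15.9 ± 1.07 CPM (SD, n = 3 each). Both means stayed near that of vehicle up to 46 µg/mL and were high at 230 µg/mL.

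BCL2L1 reached its highest level of all 20 groups in SR high. It had 232, 234 and 243 CPM in SR high, against 175, 185 and 192 CPM in vehicle, and the log2 fold change was 0.36 ± 0.04 (adjusted p = 5.04e-09). The libraries lay well apart. All 60 BCL2L1 counts were fractional, as estimated counts are where reads match more than 1 gene, so part of its count is uncertain. MCL1 was higher in SR high by 0.13 ± 0.04 log2 units, with 193, 201 and 205 CPM in SR high, against 182, 182 and 184 CPM in vehicle (adjusted p = 0.00692). This call was lost when no filter on low counts was applied (adjusted p = 0.218). BCL2L11 had 22.1, 22.5 and 24.0 CPM in SR high, against 26.1, 27.2 and 29.9 CPM in vehicle, and fell by 0.28 on the log2 scale (SE 0.08, adjusted p = 0.0116). That call was lost without vehicle replicate 1 (adjusted p = 0.0994) or SR high replicate 3 (0.0586). BMF had 0.960, 1.13 and 1.27 CPM in SR high, against 0.413, 0.588 and 0.872 CPM in vehicle. The groups did not overlap, but the difference of 0.81 ± 0.31 log2 units missed the threshold (adjusted p = 0.0513; 95% interval 0.18 to 1.44). BMF was called there without the libraries that stood apart (0.82, adjusted p = 0.0373), with the length slope as a covariate (0.90, adjusted p = 0.0181) and without vehicle replicate 1 (1.13, adjusted p = 0.0237).

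In SR high against SR low, where code numbers are shared, 5 of 9 tested members were called and 20.4% of all tested genes. PMAIP1 was 0.95 ± 0.07 log2 units higher in SR high than in SR low (adjusted p = 2.35e-15), BBC3 1.46 ± 0.12 higher (adjusted p = 2.01e-14), BCL2L1 0.30 ± 0.04 higher (adjusted p = 4.10e-07) and MCL1 0.16 ± 0.04 higher (adjusted p = 0.00135). BCL2L11 was lower at the margin of the threshold (-0.23 ± 0.08, adjusted p = 0.0489), and leaving out any of 5 of the 6 libraries, all but SR high replicate 1, raised its adjusted p to between 0.0507 and 0.235. With no filter both MCL1 (adjusted p = 0.128) and BCL2L11 (0.0640) lost their calls. In SR high against PT high, which also share a number, 4 of 9 members were called and 21.5% of all tested genes. PMAIP1 was 0.98 ± 0.07 log2 units higher in SR high (adjusted p = 4.43e-16) and BBC3 1.16 ± 0.11 higher (adjusted p = 8.53e-12).

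**Figure D4:**
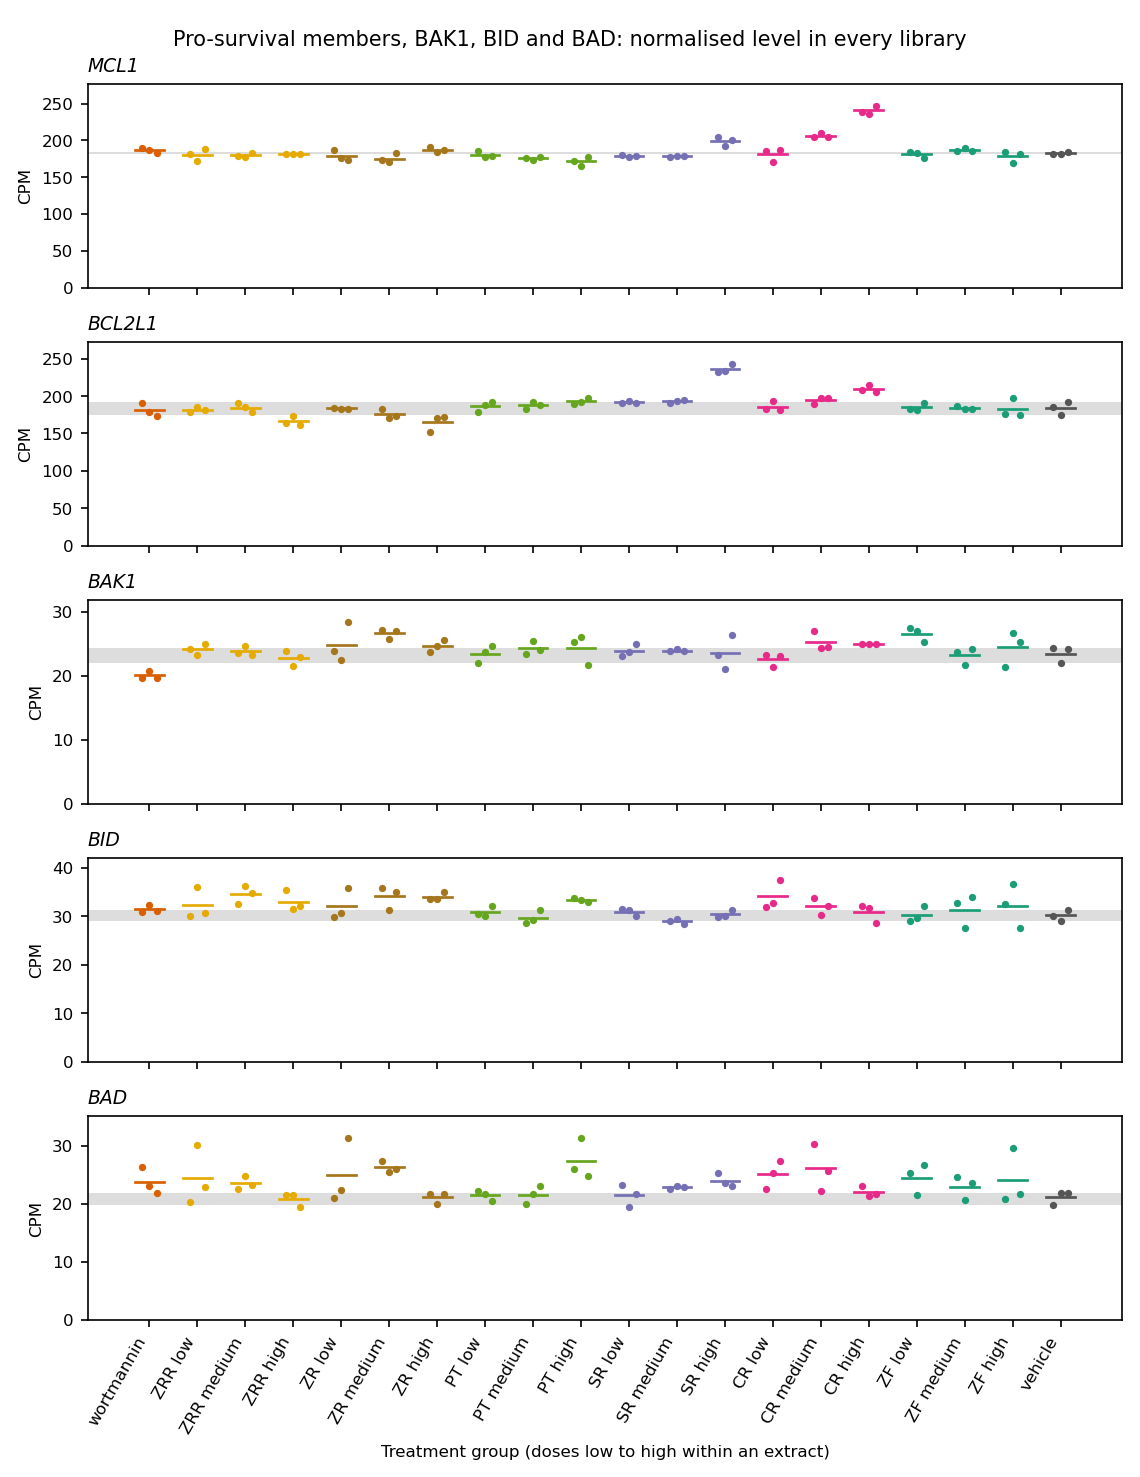
Each point is the CPM of 1 library for the pro-survival members MCL1 and BCL2L1, the pore-former BAK1, and the BH3-only members BID and BAD, with group means as short lines and the vehicle range as a grey band, on axes starting at 0. MCL1 is highest in CR high (mean 240 CPM) and BCL2L1 in SR high (mean 236 CPM), and BAK1 is lowest in wortmannin (mean 20.1 CPM).

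CR high and SR high differed from each other in both pro-survival members. In this comparison 3 of 9 tested members were called, and 21.9% of all tested genes. MCL1 averaged 240 ± 5.70 CPM in CR high and 200 ± 5.96 CPM in SR high (SD, n = 3 each), a log2 difference of 0.27 ± 0.04 (adjusted p = 1.78e-07). BCL2L1 went the other way, with 210 ± 4.74 CPM in CR high and 236 ± 5.90 CPM in SR high, a log2 difference of -0.17 ± 0.04 (adjusted p = 0.00257), and the call was lost with no filter on low counts (adjusted p = 0.0842). PMAIP1 was higher in CR high by 0.18 ± 0.07 (adjusted p = 0.0391), a call that ended under DESeq2 size factors (adjusted p = 0.0539), with no filter (0.161) and without any 1 of 5 libraries, all but SR high replicate 1 (adjusted p 0.0801 to 0.188). BBC3 did not pass the test, with a log2 difference of -0.01 and a 95% interval from -0.21 to 0.20. The first code numbers of CR and SR differ, and so do their doses, 130 and 230 µg/mL, both set by growth inhibition.

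NOXA binds MCL-1, and the PMAIP1 level was also set against the MCL1 level inside each library, both per kilobase. This ratio averaged 30.4 ± 0.654% in CR high, 32.2 ± 0.804% in SR high, 24.1 ± 1.72% in ZRR high and 22.1 ± 0.689% in ZR high, against 18.0 ± 0.690% in vehicle (SD, n = 3 each). Across the CR doses it was 30.0 ± 1.33% at 5.2, 29.1 ± 1.17% at 26 and 30.4 ± 0.654% at 130 µg/mL, while both transcripts were higher in CR high than in CR low. In wortmannin it was 14.7 ± 0.262%, the lowest mean of the 20 groups.

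The ginger extracts moved PMAIP1 by less. In ZRR high 2 of 9 tested members were called and in ZR high 3, beside 4.03% and 5.35% of all tested genes. PMAIP1 had 20.4, 21.3 and 23.3 CPM in ZRR high, against 15.9, 15.9 and 17.2 CPM in vehicle, a log2 fold change of 0.41 ± 0.07 (adjusted p = 0.000107). It had 20.2, 20.4 and 20.8 CPM in ZR high, 0.33 ± 0.07 log2 units higher than in vehicle (adjusted p = 0.00159). No library overlapped with vehicle in either case. BCL2L1 was lower in both, with log2 fold changes of -0.14 ± 0.04 in ZRR high (adjusted p = 0.0479) and -0.16 ± 0.04 in ZR high (adjusted p = 0.0227). Its levels were 161, 164 and 173 CPM in ZRR high and 152, 171 and 172 CPM in ZR high, against 175, 185 and 192 CPM in vehicle. These BCL2L1 calls were lost without vehicle replicate 1 (adjusted p = 0.148 for ZRR high and 0.0808 for ZR high), without vehicle replicate 3 (0.243 and 0.173), without replicate 1 of the treated group (0.184 and 0.312) and with no filter (0.368 and 0.346), the ZRR high call also without its replicate 3 (0.250), and the ZR high call also when only its 6 libraries were fitted (0.0843). BBC3 was called in ZR high, with 7.29, 7.79 and 7.99 CPM, against 5.61, 5.65 and 6.35 CPM in vehicle (log2 fold change 0.39 ± 0.12, adjusted p = 0.0421). That call was lost without any 1 of the ZR high libraries, without vehicle replicate 1 or without vehicle replicate 2 (adjusted p 0.0565 to 0.171), and with no filter (0.0529). BBC3 averaged 6.94 CPM in ZR low, and was not called in ZR high against ZR low (log2 difference 0.15, adjusted p = 0.598).

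Over the ginger doses of 20, 100 and 500 µg/mL, mean PMAIP1 levels were 16.8 ± 1.77, 17.7 ± 1.15 and 21.7 ± 1.50 CPM for ZRR and 16.4 ± 1.61, 18.9 ± 0.290 and 20.5 ± 0.279 CPM for ZR (SD, n = 3 each). PMAIP1 was 0.37 ± 0.07 log2 units higher in ZRR high than in ZRR low (adjusted p = 0.000580) and 0.32 ± 0.07 higher in ZR high than in ZR low (adjusted p = 0.00235). Each low group holds 1 of the libraries that stood apart. Without those libraries the differences were 0.45 (adjusted p = 5.83e-05) and 0.41 (adjusted p = 0.000258). When only the 6 libraries compared were fitted, neither call remained (adjusted p = 0.155 for ZRR and 0.323 for ZR). In ZRR high against ZRR low 1 of 9 members was called, where 4.17% of all tested genes were, and in ZR high against ZR low 2 of 9, where 4.64% were. The second ZR call was BCL2L1 (-0.15 ± 0.04, adjusted p = 0.0287), and without the libraries that stood apart it had an adjusted p of 0.0481. It was lost without ZR high replicate 1 (0.386), without any 1 of the ZR low libraries (0.0583 to 0.0771), with no filter (0.284) and when only the 6 libraries were fitted (0.623).

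At the low and medium ginger doses edgeR called no member, where 0.111% and 0.280% of all tested genes were called for ZRR and 0.00584% and 0.922% for ZR. At an unadjusted p under 0.05 there were 0 members in ZRR low and ZR low, 2 in ZRR medium (BCL2L11 and BID) and 6 in ZR medium, and DESeq2 called 1, in ZR medium. ZR medium depended on the libraries that stood apart. Without them 5 members were called (BCL2L11 lower, and PMAIP1, BID, BAK1 and BAD higher), beside 16.7% of all tested genes in that fit. None of those libraries is in ZR medium or vehicle, but all groups share a common estimate of the spread. Between fresh and dried ginger at the high dose no tested member was called in edgeR or DESeq2, 1 (BBC3) had an unadjusted p under 0.05, and 0.712% of all tested genes were. The log2 difference of PMAIP1 in ZRR high against ZR high was 0.08, with a 95% interval from -0.06 to 0.22, and that of BBC3 was -0.27, with an interval from -0.51 to -0.02 (adjusted p = 0.677).

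PT and ZF gave no call among the members when all libraries were fitted with the filter on low counts. Neither edgeR nor DESeq2 called one at any PT dose, where 0%, 0.0175% and 1.40% of all tested genes were called at low, medium and high, nor at any ZF dose, where 0.0117%, 0.0117% and 0.00584% were. For PT low, DESeq2 called 2 genes, and before adjustment 557 passed 0.05 in edgeR. Among the members an unadjusted p under 0.05 was found for 4 in PT high (MCL1, BCL2L11, BBC3 and BAD), 2 in ZF low (BBC3 and BAK1) and 1 in ZF high (BBC3), and for 0 at the other 3 doses. The contrasts of high against low dose also gave no member call in either tool, beside 0.549% of all tested genes for PT and 0% for ZF (397 genes at an unadjusted p under 0.05, none in DESeq2). The same 4 members had an unadjusted p under 0.05 in PT high against PT low, and none did in ZF. The PMAIP1 difference from vehicle had a 95% interval of -0.16 to 0.13 log2 units in PT high and -0.15 to 0.14 in ZF high, and that of BBC3 ran from 0.04 to 0.53 in PT high and from 0.02 to 0.51 in ZF high. In CR high against ZF high, 6 of 9 members were called, where 34.0% of all tested genes were. PMAIP1 was 1.16 ± 0.07 log2 units higher in CR high (adjusted p = 2.76e-19; without the libraries that stood apart 1.19, adjusted p = 3.08e-19) and BMF 1.22 ± 0.29 higher (adjusted p = 0.000778). Without the libraries that stood apart BMF was also higher (adjusted p = 0.00443), BBC3 was higher by 1.15, against 1.17 with them, and BCL2L11 differed by -0.30, against -0.23 with them.

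Wortmannin gave another pattern. Here 1 of 9 tested members rose and 2 fell, beside 13.4% of all tested genes called higher, 11.9% called lower and 25.3% called either way. BMF had 1.16, 1.48 and 1.70 CPM in wortmannin, against 0.413, 0.588 and 0.872 CPM in vehicle. All wortmannin libraries were higher, and the log2 fold change was 1.18 ± 0.30 (adjusted p = 0.00205), next to the rise of 1.11 in CR high. PMAIP1 had 13.1, 13.8 and 13.9 CPM in wortmannin, against 15.9, 15.9 and 17.2 CPM in vehicle, and fell by 0.26 on the log2 scale (SE 0.07, adjusted p = 0.00618). This was its lowest level of the 20 groups. BAK1, which encodes the pore-forming BAK, had 19.7, 19.7 and 20.7 CPM in wortmannin, against 21.9, 24.1 and 24.3 CPM in vehicle, a log2 fold change of -0.22 ± 0.08 (adjusted p = 0.0231). The groups did not overlap, but the BAK1 call was lost without vehicle replicate 1 (adjusted p = 0.101), vehicle replicate 3 (0.0773) or wortmannin replicate 3 (0.0793).

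BCL2L11 and BBC3 were not called in wortmannin. BCL2L11 had 27.5, 27.9 and 31.4 CPM in wortmannin, against 26.1, 27.2 and 29.9 CPM in vehicle. BBC3 had 5.72, 6.01 and 6.62 CPM in wortmannin, against 5.61, 5.65 and 6.35 CPM in vehicle. The groups overlapped for both genes, and the 95% intervals of the log2 fold changes ran from -0.10 to 0.23 for BCL2L11 and from -0.18 to 0.32 for BBC3. MCL1 had an interval from -0.05 to 0.10 and BCL2L1 from -0.11 to 0.07.

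BID and BAD had no call against vehicle when all libraries were fitted with the filter on low counts and no length covariate. BID encodes a BH3-only protein that caspase-8 cleaves, and its group means were lowest in SR medium (28.4 to 29.5 CPM over 3 libraries) and reached 34.6 CPM in ZRR medium, with 30.1 CPM in vehicle. All 19 neighbouring pairs in its order of group means overlapped. BAD encodes a BH3-only protein held inactive by phosphorylation downstream of AKT. Its group means ran from 20.8 CPM in ZRR high to 27.3 CPM in PT high, with 21.1 CPM in vehicle and single libraries up to 31.3 CPM in PT high and ZR low. All 60 BAD counts were fractional, and exons of GPR137 lie on the opposite strand. The ZR low library at 31.3 CPM is one that stood apart. Without the libraries that stood apart, BAD was called higher in PT high (log2 fold change 0.37, adjusted p = 0.0118, against 0.121 with them), in CR medium (0.31, adjusted p = 0.00798, against 0.0697) and in CR low (0.26, adjusted p = 0.0299, against 0.158). BID was then called higher in CR low (0.19, adjusted p = 0.0281, against 0.102). In those fits 5.70% of all tested genes were called in PT high, 28.9% in CR medium and 26.7% in CR low. With no filter BAD was also called in PT high (adjusted p = 0.000444), ZR medium (0.00465), CR medium (0.00337) and CR low (0.0277), and with the length slope as a covariate in wortmannin (0.00256). BAD in PT high against PT low had an adjusted p of 0.284, and of 0.0305 without the libraries that stood apart.

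Ranked by group mean, PMAIP1 ran from CR high through SR high, CR medium, CR low and ZRR high down to wortmannin, and the libraries of neighbouring groups overlapped in 14 of 19 pairs. The gaps lay between CR high and SR high, CR low and ZRR high, ZR high and ZR medium, ZR medium and ZRR medium, and PT low and wortmannin. For BBC3, MCL1 and BCL2L1, 17 of 19 neighbouring pairs overlapped, for BAK1 18, and for BMF and BCL2L11 all 19. BBC3 was led by SR high and CR high (15.9 CPM each), MCL1 by CR high and CR medium, and BMF by wortmannin (1.45 CPM) and CR high (1.37 CPM).

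Over the 20 group means of log2 CPM, the genes whose pattern was most like that of PMAIP1 were DDIT4 (Pearson's r = 0.989), CEBPG (0.988) and TRIB3 (0.987). DDIT4 encodes an inhibitor of mTORC1, CEBPG a partner of ATF4 and TRIB3 a pseudokinase. TRIB3 averaged 330 CPM in CR high, against 65.2 CPM in vehicle. For BBC3 they were MSC (0.974), IER2 (0.972) and SMOX (0.964), for MCL1 SLFN5 (0.957), MXD1 (0.953) and ASAH2B (0.950), and for BCL2L11 OSBPL3 (0.935), TBX18 (0.919) and PDE11A (0.918). BMF (THBD and LGALS3 at 0.902 each, CACNG6 at 0.900) and BCL2L1 (NUAK1 at 0.870, DDB2 at 0.862, DGKD at 0.861) had less close neighbours. These values describe 20 points that share one scaling and are dominated by the groups with large changes, so they carry no test.

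Other BCL2 family genes also changed in these treatments. The list also holds MOAP1, which is not itself a BCL2 family gene and is among the rises in CR high, SR high and wortmannin. Of 14 listed, 12 were tested, and 7 rose and 1 fell in CR high, 4 rose and none fell in SR high, and 2 rose and 2 fell in wortmannin. The median log2 fold change of the list was 0.19, 0.14 and -0.12 in these treatments. For all tested genes the median was 0.01 in each, and 35.1%, 23.9% and 25.3% of them were called. HRK, a BH3-only gene, averaged 2.00 ± 0.262 CPM in CR high and 0.605 ± 0.0534 CPM in vehicle (SD, n = 3 each; log2 fold change 1.71 ± 0.30, adjusted p = 6.27e-06). BCL2A1, a pro-survival member, averaged 13.1 ± 0.460 CPM in CR high and 7.36 ± 0.442 CPM in vehicle (0.83 ± 0.15, adjusted p = 9.58e-06). The 1 that fell in CR high was BCL2L15, at a low level, with 0.281 ± 0.0950 CPM in CR high and 0.564 ± 0.125 CPM in vehicle (-1.01 ± 0.33, adjusted p = 0.0200). In wortmannin the falls were BCL2L2, a pro-survival member (-0.19 ± 0.06, adjusted p = 0.0182), and BCL2L13 (-0.13 ± 0.05, adjusted p = 0.0343). BNIP3L, a mitophagy receptor, rose in SR high (68.0 ± 3.31 CPM, against 45.3 ± 0.999 CPM in vehicle; 0.59 ± 0.05, adjusted p = 9.78e-14) and in wortmannin (56.5 ± 1.57 CPM; 0.32 ± 0.05, adjusted p = 1.28e-06).

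All 22 genes listed as downstream in the mitochondrial pathway were tested. Not all of them act after the membrane step: CASP8, whose protein cleaves BID, is listed, as are VDAC1, VDAC2 and VDAC3. CASP8 rose in CR high, and VDAC3 fell in CR high, SR high and wortmannin. In CR high 4 rose and 8 fell, in SR high 2 rose and 7 fell, and in wortmannin none rose and 7 fell. The list medians were -0.08, -0.07 and -0.04. Over all tested genes the shares called higher were 18.5%, 13.0% and 13.4%, and the shares called lower 16.7%, 10.9% and 11.9%. The genes that rose most were inhibitors of apoptosis: BIRC3 averaged 61.4 ± 4.26 CPM in CR high and 38.6 ± 0.500 CPM in vehicle (log2 fold change 0.67 ± 0.06, adjusted p = 7.75e-14), and BIRC2 62.6 ± 1.04 CPM in CR high and 49.5 ± 1.72 CPM in vehicle (0.34 ± 0.05, adjusted p = 2.46e-07). BIRC5, encoding survivin, which also serves in cell division, averaged 132 ± 0.841 CPM in CR high, 178 ± 8.18 CPM in SR high and 146 ± 3.25 CPM in wortmannin, against 218 ± 7.55 CPM in vehicle. Its log2 fold change was -0.73 ± 0.07 in CR high (adjusted p = 6.86e-12), -0.29 ± 0.07 in SR high (adjusted p = 0.00139) and -0.58 ± 0.07 in wortmannin (adjusted p = 1.21e-08). CYCS, the gene for cytochrome c, fell in wortmannin, with 294 ± 12.4 CPM in wortmannin and 399 ± 8.50 CPM in vehicle (-0.44 ± 0.11, adjusted p = 0.00165).

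All 19 listed regulators of the members' transcription and turnover were tested. In CR high 10 rose and 2 fell, in SR high 10 rose and 1 fell, and in wortmannin 2 rose and 3 fell. The list medians were 0.13, 0.18 and -0.03. In the same order, 35.1%, 23.9% and 25.3% of all tested genes were called either way. DDIT3, the stress transcription factor CHOP, averaged 38.7 ± 1.21 CPM in CR high and 49.0 ± 3.89 CPM in SR high, against 8.42 ± 1.13 CPM in vehicle. Its log2 fold changes were 2.20 ± 0.13 in CR high (adjusted p = 7.60e-20) and 2.55 ± 0.13 in SR high (adjusted p = 9.51e-22). In ZRR high and ZR high it averaged 13.3 CPM each, 0.66 ± 0.13 log2 units above vehicle in both (adjusted p = 0.000936 and 0.000597). In wortmannin DDIT3 was lower, at 4.73 ± 0.349 CPM (-0.82 ± 0.15, adjusted p = 3.01e-05), as was ATF3, with 3.83 ± 0.580 CPM in wortmannin and 7.84 ± 0.126 CPM in vehicle (-1.04 ± 0.11, adjusted p = 6.23e-10). EGR1, an immediate early transcription factor, rose in SR high (7.69 ± 1.06 CPM, against 1.25 ± 0.264 CPM in vehicle; 2.62 ± 0.18, adjusted p = 1.43e-16) and in CR high (3.86 ± 0.476 CPM; 1.63 ± 0.18, adjusted p = 4.67e-10).

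**Figure D5:**
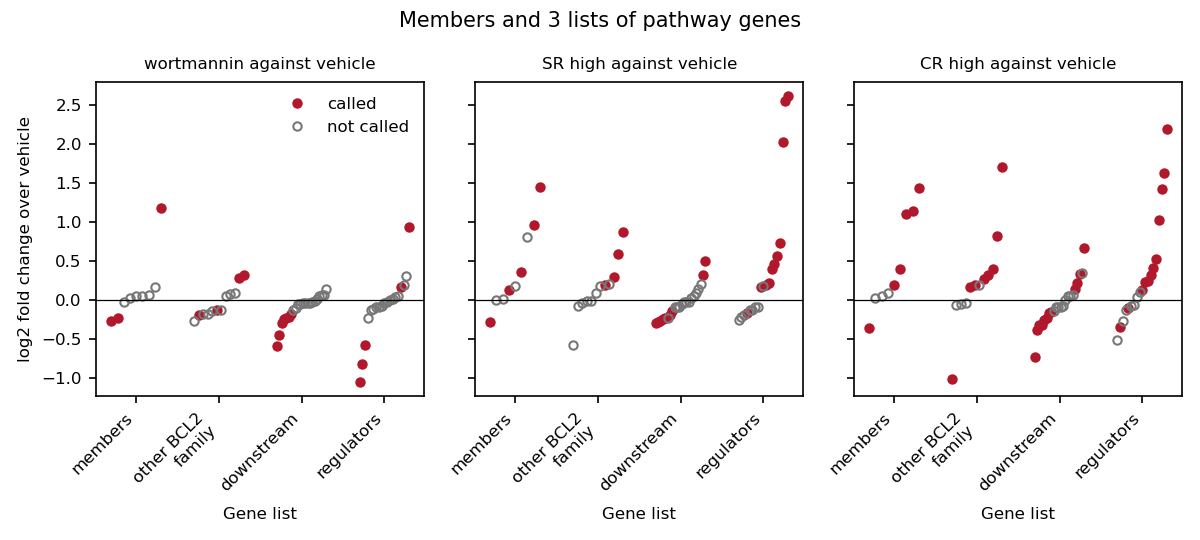
Each point is the log2 fold change of 1 tested gene over vehicle in wortmannin, SR high or CR high, filled at an adjusted p under 0.05. The genes are the 9 tested members, 12 listed with the BCL2 family, 22 listed as downstream and 19 regulators. The regulators reach 2.62 (EGR1 in SR high). The genes listed as downstream stay between -0.73 (BIRC5) and 0.67 (BIRC3), both in CR high. BMF is the only member above 1 in wortmannin.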

How the data were processed

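The deposited table holds the authors' estimated counts per Ensembl gene, not normalised, as the fractional values in the file show. The submitters' processing notes list RSEM 1.3.3, STAR 2.7.3a, Trim Galore 0.6.5, FastQC 0.11.9 and GRCh38, without their roles. No source used here names the annotation release or the strand setting. Of 269 libraries in the table, the 60 of this series were used; 209 columns of other samples were not.

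Estimated counts were rounded to whole numbers. Genes without a name held 0.0681% of counts and stayed in the table. edgeR 4.0.16 (R 4.3.3) was fitted to all 60 libraries with 1 mean per group (TMM scaling, filterByExpr by group, robust quasi-likelihood test), and p-values were Benjamini-Hochberg adjusted over 17129 genes within each comparison. CPM values use TMM library sizes, and ± is the SE of a log2 fold change or the SD of CPM. The step was tested on simulated counts. Depth was 17420373 to 36479629 counts per library (median 24017581); counting error is therefore largest for BMF and BIK. No pair of replicates was identical, and the lowest correlation between replicates was 0.982.

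Symbols, exons and transcript lengths came from the reference name table and GENCODE 29, and promoters from RefSeq (GRCh38.p14). All members were described. Other genes were named by rule, apart from markers and genes named to describe a locus or a list. The rule took the 3 genes most like each member called in at least 3 comparisons, and the 2 largest called rises and falls per list. One regulator is counted in its list and not reported here by name. Members and lists were chosen with earlier results of these data known. Alternatives were another scaling, no filter, DESeq2 1.42.0, fitting only the compared libraries, a replicate block, a length covariate, and leaving out libraries.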

Additional observations from a re-analysis of the deposited data

Results flagged for a closer look

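Between SR high and PT high, which share the first number of their sample codes, 4 of 9 tested members differed by the test of the difference itself, beside 21.5% of all tested genes. The log2 difference was 0.98 for PMAIP1, 1.16 for BBC3, 0.30 for BCL2L1 and 0.22 for MCL1, each higher in SR high in all 3 libraries. All 4 kept their call under every alternative run for this comparison. Between CR high and ZF high, which also share a number, 6 of 9 tested members differed, beside 34.0% of all tested genes: PMAIP1 by 1.16, BBC3 by 1.17, BMF by 1.22, MCL1 by 0.43 and BCL2L1 by 0.20, all higher in CR high, and BCL2L11 by -0.23. BCL2L1 lost its call when only the 6 libraries were fitted (adjusted p = 0.0838). BCL2L11 lost its call in that fit (adjusted p = 0.0856) and without CR high replicate 2 (0.0787), CR high replicate 3 (0.0520), ZF high replicate 1 (0.0663) or ZF high replicate 3 (0.161). The other 4 did not lose theirs under any alternative run for this comparison.

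Between CR high and SR high, at different doses and code numbers, 3 of 9 tested members differed, beside 21.9% of all tested genes: MCL1 differed by 0.27, BCL2L1 by -0.17 and PMAIP1 by 0.18 on the log2 scale. MCL1 kept its call under every alternative run for this comparison.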

How the results depend on the processing

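No called member value reversed its direction under any alternative. Of 1566 member values with 1 library left out, 40 lost and 2 gained a call, and of 1566 under other scaling, filter, tool, sample, block and length settings 20 lost and 20 gained one. The count of called members moved by more than 1.5 times in these cases. With no filter it was 1 for ZRR high, 1 for ZR high, 2 for ZR medium and 1 for PT high against vehicle, 1 for ZR high against ZR low, 1 for PT high against PT low, 3 for SR high against SR low and 1 for CR high against SR high. With only the compared libraries it was 2 for ZRR medium and 4 for ZR medium against vehicle, and 0 for ZRR high against ZRR low and ZR high against ZR low. DESeq2 gave 1 for ZR medium against vehicle and 2 for ZRR high against ZRR low. Without the 3 libraries that stood apart, an alternative chosen after seeing the data, it was 5 for ZR medium, 1 for PT high and 4 for CR low against vehicle, and 1 for PT high against PT low. Leaving out 1 library gave 1 to 2 for ZRR high and ZR high against vehicle and 1 to 2 for ZR high against ZR low. Smaller moves were 4 for 3 in wortmannin, 6 for 5 in SR high against vehicle and against SR low and 6 for 5 in CR high against CR low with the length covariate; 2 for 3 in CR high against SR high under DESeq2 size factors; 2 for 3 in ZR high, 5 for 4 in CR medium and 4 for 6 in CR high against ZF high with only the compared libraries. With no filter they were 4 for 5 in SR high and 3 for 2 in CR low against vehicle and 4 for 5 in CR high against CR low, where DESeq2 also gave 4. Without the libraries that stood apart they were 6 for 5 in SR high, 5 for 4 in CR medium and 6 for 5 in CR high against CR low. The cause of these moves was not tested.

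Replicate numbers did not pair the libraries: deviations of equally numbered libraries correlated between -0.401 and 0.210 (median 0.000392), with no comparison in which all pairs passed 0.1. With the replicate block, member counts were equal in all 29 comparisons (for example 6 in CR high and 3 in wortmannin against vehicle), and 0 of 261 member calls changed.

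Counts of all called genes moved by more than 1.5 times in several comparisons. ZR medium against vehicle had 158 calls, but 2219 with no filter, 741 in DESeq2, 2691 with only the 6 libraries and 2855 without the libraries that stood apart. CR low against vehicle had 3024, and 1315 to 2894 with 1 library left out. Wortmannin had 4340, and 6599 with the length covariate. The shares of called genes printed beside the members move with these choices.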
